A study of Mus musculus with 12 samples.

Results

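The 10 genes described here are products of neutrophils, the granulocytes that enter injured tissue first: S100a8, S100a9, Ltf, Ngp, Camp, Lcn2, Retnlg, Csf3r, Mmp25 and Cd177. They were taken by symbol from the deposited tables, where all 10 were found among 46983 gene symbols. The libraries came from mouse hearts that were split into non-cardiomyocytes (NonCM) and cardiomyocytes (CM). Every mouse had 3 tamoxifen doses between postnatal days 1 and 3 and a myocardial infarction on postnatal day 2, and tissue was taken 2 weeks after surgery, although the labels call the cells adult. The strain label is BL6/C57. The 4 groups were NonCM of MCM/+ Wls fl/fl mice, NonCM of MCM/+ mice (control), CM of MCM/+ Wls fl/fl mice and CM of MCM/+ mice (control), with 3 libraries each and 3 hearts stated per condition. The MCM allele and tamoxifen were thus shared by all groups, and no group without infarction was analysed here. MCM commonly stands for MerCreMer, a tamoxifen-activated Cre recombinase, and the labels do not name its promoter. Wls, the floxed gene, encodes the carrier that brings Wnt proteins to the cell surface for secretion.

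Neutrophils store antimicrobial and matrix-degrading proteins in granules that are filled one class after another while the cell matures in the bone marrow. Azurophil granules are made first in promyelocytes, specific (secondary) granules with lactoferrin, cathelicidin and lipocalin 2 in later precursors, and gelatinase granules last, and transcription factors of the C/EBP family, C/EBPε above all, switch on the specific granule genes. The proteins S100A8 and S100A9 form calprotectin, a calcium- and zinc-binding complex of the neutrophil cytosol that activates the receptors TLR4 and RAGE once it is released. In the infarcted heart neutrophils peak within days and are then cleared, and G-CSF, acting through the receptor encoded by Csf3r, controls their supply. Several of these genes are not restricted to neutrophils, since monocytes also make S100a8 and S100a9, and injured epithelium and other tissues make Lcn2. The libraries are bulk RNA, so that fewer cells of a type and less RNA per cell cannot be told apart.

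The genes are spread over several chromosomes, with 2 groups of neighbours. On mouse build mm10 (GRCm38, GENCODE annotation), S100a8 lies at chr3:90668978-90670035 on the plus strand and S100a9 next to it at chr3:90692632-90695721 on the minus strand. Camp (chr9:109847379-109849617), Ngp (chr9:110419747-110423012) and Ltf (chr9:111019271-111042767) lie on the same chromosome. The 250 bases before the RefSeq start of 3 genes with high values in the same libraries are given below in lower case, from the RefSeq promoter table on GRCm38.p6, read 5′ to 3′ on the strand of the gene. Capitals mark every match to TTNNGNAA or its reverse complement TTNCNNAA, a loose form of the C/EBP consensus. These are chr3:90668821-90669070 (plus) for S100a8, chr3:90695722-90695971 (minus) for S100a9 and chr9:111019042-111019291 (plus) for Ltf.
S100a8: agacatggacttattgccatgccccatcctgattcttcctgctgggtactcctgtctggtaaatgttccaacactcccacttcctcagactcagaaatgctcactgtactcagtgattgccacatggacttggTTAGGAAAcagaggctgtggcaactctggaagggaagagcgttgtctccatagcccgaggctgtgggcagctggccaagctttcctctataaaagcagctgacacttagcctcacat
S100a9: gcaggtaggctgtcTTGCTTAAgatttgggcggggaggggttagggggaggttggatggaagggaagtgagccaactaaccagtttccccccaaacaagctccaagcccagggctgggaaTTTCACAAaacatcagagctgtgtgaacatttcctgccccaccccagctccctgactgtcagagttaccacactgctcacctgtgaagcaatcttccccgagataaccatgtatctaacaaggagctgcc
Ltf: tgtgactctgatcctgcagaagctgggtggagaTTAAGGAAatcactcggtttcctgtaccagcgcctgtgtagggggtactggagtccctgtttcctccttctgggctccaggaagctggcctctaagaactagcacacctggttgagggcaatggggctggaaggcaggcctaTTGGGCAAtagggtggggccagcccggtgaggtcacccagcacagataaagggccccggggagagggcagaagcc
At least 1 such match was found in 7 of the 10 promoters (S100a8, S100a9, Ltf, Ngp, Lcn2, Retnlg and Cd177), against 36.8% of all 32851 promoters of the same length. The narrower form TTGCNNAA (or TTNNGCAA), which is contained in the first, was found in 5 of 10 (S100a9, Ltf, Ngp, Lcn2 and Retnlg), against 9.56% of all promoters. The core GAGGAA (or TTCCTC) of sites for PU.1, the myeloid factor encoded by Spi1, was found in 6 of 10 (S100a8, Ltf, Lcn2, Csf3r, Mmp25 and Cd177), against 23.3%. A match describes letters only, and binding was not measured.

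The deposited values are normalized read counts, from which whole reads were recovered. Depth lay between 1160146 recovered reads in NonCM control replicate 1 and 10281214 in NonCM Wls fl/fl replicate 1. In the shallow control library 1 read was worth a normalized read count of 5.54, so that low values there are coarse. Replicate 3 of all 4 groups had a profile equal to a weighted mean of replicates 1 and 2 within counting noise, with squared residuals of 0.994 to 1.04 times the counting variance, against 1.11 to 1.72 times for the other replicates. In NonCM Wls fl/fl the weights were 33% for replicate 1 and 67% for replicate 2. There the weighted mean predicted 168 reads of S100a8 and 224 of S100a9 in replicate 3, where 178 and 219 were read, and 8 of the 10 genes fell within the 95% counting interval of the reads. For Ltf it predicted 102 reads where 80 were read, and for Ngp 156 where 123 were read, both outside that interval. In NonCM control 7 of the 10 genes fell within it (S100a9, Camp and Lcn2 did not), in CM Wls fl/fl 9 and in CM control 7. The interval leaves out the counting error of the prediction itself, so that a gene outside it need not depart from the weighted mean. Because replicate 3 may not be separate from replicates 1 and 2, results are also given without it. The labels do not say which library came from which heart, and the p-values below rest on the spread among libraries that may not be separate animals. Wls had normalized read counts of 91.6, 57.3 and 93.9 in CM Wls fl/fl libraries, against 243, 201 and 210 in CM controls, and of 356, 323 and 316 in NonCM Wls fl/fl libraries, against 427, 374 and 407 in NonCM controls. Cardiomyocyte markers took 52205 to 66160 RPM (reads per 1000000 recovered reads) in NonCM and 88969 to 99859 in CM libraries, and fibroblast markers took 12309 to 18189 in NonCM and 1392 to 1698 in CM libraries.

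In the NonCM fraction all 10 granule and S100 genes had higher mean values in Wls fl/fl than in control libraries, with a wide spread within Wls fl/fl. Ltf was the single gene past the threshold of the main test, limma with a Benjamini-Hochberg adjusted p under 0.05. Replicates 2 and 3 of Wls fl/fl carried most of the signal, and replicate 1 lay much closer to the controls. Below, values are normalized read counts in replicates 1, 2 and 3 of each genotype, differences are Wls fl/fl minus control on the log2(value + 1) scale, and a gene was tested where its mean over the 6 libraries of a fraction was 10 or more.

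S100a8, the smaller calprotectin subunit, had 28, 174 and 133 in Wls fl/fl libraries, against 11.1, 22.9 and 16.7 in controls. Every Wls fl/fl library was above every control, but replicate 1 exceeded the highest control only slightly. The difference was 2.35 (SE 0.59, limma adjusted p = 0.0579). S100a9, which encodes the partner subunit, had 47.7, 228 and 164 in Wls fl/fl libraries, against 16.6, 31.3 and 36.9 in controls. Its groups did not overlap either, with replicate 1 again lowest in Wls fl/fl, and its difference was 2.14 (SE 0.52, limma adjusted p = 0.0530). Both subunits thus lay just outside the threshold and had the same order of Wls fl/fl libraries. By edgeR's quasi-likelihood test on the recovered reads, S100a8 differed by 2.52 (adjusted p = 0.00815) and S100a9 by 2.13 (adjusted p = 0.00723), both past the threshold. The authors' deposited table gives 2.66 for S100a8 (adjusted p = 0.0225) and 2.30 for S100a9 (adjusted p = 0.0246).

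Among the specific granule genes, Ltf, which encodes the iron-binding protein lactoferrin, had 13.4, 108 and 59.8 in Wls fl/fl libraries, against 5.54, 4.58 and 7.97 in controls. It rose by 2.73 (SE 0.64, limma adjusted p = 0.0472), with 263 reads over the 3 Wls fl/fl libraries and 18 over the 3 controls. Ngp, which encodes the cystatin-related neutrophilic granule protein, had 21.0, 165 and 91.9 in Wls fl/fl libraries, against 5.54, 16 and 13 in controls. Its groups did not overlap, and the difference of 2.59 (SE 0.67) had a limma adjusted p of 0.0624. By edgeR both genes passed, Ltf with 3.23 (adjusted p = 0.00764) and Ngp with 2.71 (adjusted p = 0.0111). Camp, the cathelicidin gene, had 2.54, 37.9 and 28.4 in Wls fl/fl libraries, against 5.54, 0.763 and 7.24 in controls. Here Wls fl/fl replicate 1 lay below 2 of the 3 controls, so that the groups overlapped (difference 1.80, SE 0.93, limma adjusted p = 0.335). Lcn2, whose product lipocalin 2 binds bacterial siderophores, had 10.8, 51.9 and 38.9 in Wls fl/fl libraries, against 11.1, 15.3 and 6.52 in controls. It overlapped in the same way (difference 1.36, SE 0.55, limma adjusted p = 0.212; by edgeR 1.62 with adjusted p = 0.0505).

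Retnlg and Csf3r showed smaller differences, more even across the Wls fl/fl libraries. Retnlg, which encodes the secreted resistin-like gamma, had 17.8, 18.6 and 23.2 in Wls fl/fl libraries, against 5.54, 11.4 and 6.52 in controls. All 3 Wls fl/fl libraries were close together and above every control, with a difference of 1.29 (SE 0.35, limma adjusted p = 0.0781) and by edgeR 1.17 (adjusted p = 0.0246). Csf3r, the receptor of the granulocyte growth factor G-CSF, had 35.0, 49.9 and 37.4 in Wls fl/fl libraries, against 22.2, 32.0 and 29.0 in controls. Its groups were apart by little, with a difference of 0.54 (SE 0.23, limma adjusted p = 0.230) and by edgeR 0.44 (adjusted p = 0.200). Mmp25, which encodes a membrane-anchored metalloproteinase, and Cd177, which encodes a neutrophil surface glycoprotein, had means under 10 and were not tested. Cd177 had 4.45, 12.6 and 8.22 in Wls fl/fl libraries, against 0, 3.05 and 0.724 in controls, without overlap. Mmp25 had 3.82, 5.32 and 4.48 in Wls fl/fl libraries, against 0, 4.58 and 2.90 in controls, with overlap. The values of 0 in control replicate 1 mean no read, which at its depth allows up to 2.59 RPM, counting error only.

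**Figure D1:**
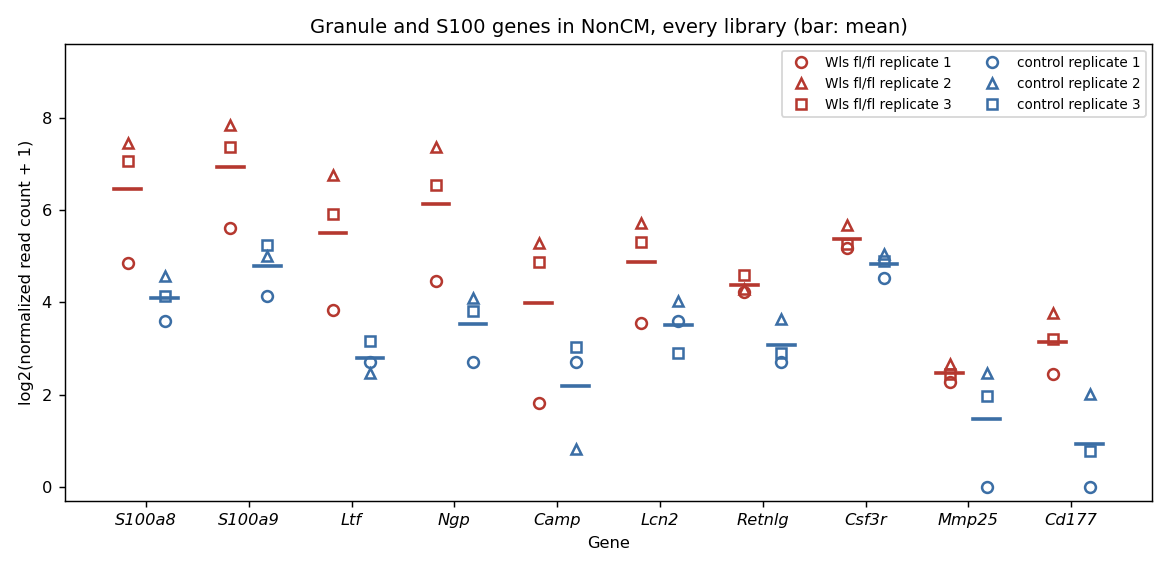
Normalized read counts of the 10 genes in the 6 NonCM libraries on a log2(value + 1) axis, with Wls fl/fl (red) left of control (blue), a marker for each replicate and a bar at the mean. Wls fl/fl replicate 1 (circle) lies far below replicates 2 and 3 for S100a8, S100a9, Ltf, Ngp, Camp and Lcn2, while Retnlg and Csf3r are even across the 3 Wls fl/fl libraries.

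Counted over the NonCM fraction, 1 of the 8 tested genes was called higher by limma, where 2.47% of the 13271 genes tested were called higher. Ltf, Camp and Retnlg passed the filter through their Wls fl/fl values, with control means of 6.03, 4.52 and 7.83, so that counts among the 8 describe these libraries and support nothing. S100a8, S100a9, Ngp, Lcn2 and Csf3r had control means of 10 or more, a limit applied to controls after the values were seen. Of these 5 genes limma called 0, against 2.44% of the 13070 tested genes with such a control mean called higher. The unadjusted limma p was under 0.05 for all 5, each of them higher, against 10.3% of those genes, of which 51% had a higher mean in Wls fl/fl. In 4 of the 5, all but Lcn2, every Wls fl/fl library lay above every control, which was so for 13.6%. Over all 10 genes, tested or not, 10 had a higher mean in Wls fl/fl and 7 had groups without overlap, against 55.8% and 9.16% of the 29009 genes with a read. By edgeR 5 of 7 tested genes were called higher (S100a8, S100a9, Ltf, Ngp and Retnlg), against 5.59% of all genes tested. Ltf and Retnlg, with 18 and 25 reads over the 3 controls, passed its filter on reads through their Wls fl/fl libraries. Counts of these genes by edgeR with that filter within NonCM, here and below, thus describe these libraries and support nothing. By DESeq2 all 3 genes with an adjusted p were called higher (S100a8, S100a9 and Ngp), against 3.2%. At an adjusted p under 0.1 limma called 5 of 8 genes (4.54% of all genes tested) and with no filter 4 of 10 (1.19%). At a mean of 50 or more it called 3 of 3 (4.23%), and edgeR with no filter called 8 of 10 (3.16%). S100a8, S100a9 and Ngp, with control means of 16.9, 28.3 and 11.5, reached a mean of 50 through their Wls fl/fl values. The 3 of 3 there, and the 3 of 3 by DESeq2 on the same genes, thus support nothing. Limma called 1 under TMM scaling (2.24%), pseudocounts of 0.5 (2.43%) and 5 (2.63%) and limma-voom (5.38%), not the same gene in each. Over the 4 comparisons of this report 22 tests of these genes were made.

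The calls turned on single libraries. Without replicate 3 of both genotypes limma called 0 of 8 genes and edgeR 0 of 7, with 0% and 0.225% of all genes tested called higher. In that limma fit the differences were 2.07 for S100a8 (limma adjusted p = 0.506), 2.14 for S100a9 (0.479), 2.71 for Ltf (0.490) and 2.52 for Ngp (0.506). An unadjusted p under 0.05 was reached there by 4 of 8 genes by limma and 4 of 7 by edgeR, against 5.71% and 6.84% of all genes tested. Without Wls fl/fl replicate 1 limma called 5 of 8 genes (1.24% of all genes tested), and it called 0 without Wls fl/fl replicate 2 (0.627%), Wls fl/fl replicate 3 (0.505%) or control replicate 3 (0.752%). In each of these 3 cases 5 genes had an unadjusted p under 0.05, against 7.24%, 6.81% and 10.3% of all genes tested. Sizes moved with the library left out: S100a8 differed by 3.16 without Wls fl/fl replicate 1 and by 1.86 without Wls fl/fl replicate 2, Ltf by 3.56 and 2.10, and Ngp by 3.42 and 1.96. Limma called 5 of 8 without the shallow control replicate 1 (6.63%) and 2 of 8 without control replicate 2 (3.11%). By edgeR the number called ran from 0 of 9 without control replicate 3 (2.52% of all genes tested) to 8 of 9 without Wls fl/fl replicate 1 (5.42%). Without control replicate 3, 6 of 9 had an unadjusted edgeR p under 0.05, against 9.14%. S100a8, S100a9, Ltf and Ngp passed edgeR with any single library other than control replicate 3 left out. Without Wls fl/fl replicate 3 they passed only just (edgeR adjusted p = 0.0357 to 0.0487).

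Summed over the 10 genes, the NonCM libraries differed more within Wls fl/fl than among controls. The sum was 28.2, 132 and 91.5 RPM in Wls fl/fl replicates 1, 2 and 3, from 290, 1279 and 788 reads. In controls it was 12.9, 20.8 and 19.0 RPM, from 15, 186 and 176 reads. The mean was 83.8 ± 52.1 in Wls fl/fl and 17.6 ± 4.10 in control libraries (SD, n = 3 each). All 3 Wls fl/fl libraries were above all controls, and the exact 95% counting interval of Wls fl/fl replicate 1, 25.1 to 31.6, lay just above the 17.9 to 24.0 of control replicate 2. With 3 libraries a group an exact permutation test cannot give a p below 0.1.

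**Figure D2:**
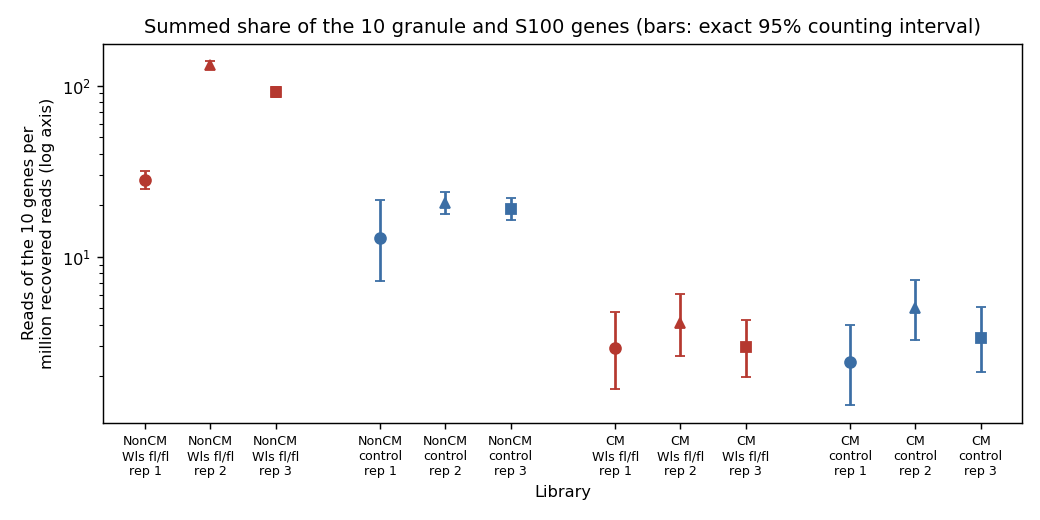
Reads of the 10 genes together, in RPM, in all 12 libraries, on a log axis, with exact 95% counting intervals as bars and Wls fl/fl left of control in each fraction. NonCM Wls fl/fl replicates 2 and 3 stand at 132 and 91.5, replicate 1 at 28.2 and the NonCM controls at 12.9 to 20.8, while all CM libraries lie between 2.42 and 5.03.

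The makeup of this signal also differed between the Wls fl/fl libraries. Among the specific granule genes of late precursors, a sum was taken of Ltf, Ngp and Camp only. These made up 20%, 36.5% and 30.6% of the reads of the 10 genes in Wls fl/fl replicates 1, 2 and 3. In control replicates 1, 2 and 3 they made up 20%, 15.1% and 22.2%. Csf3r, Retnlg and Mmp25, which mature neutrophils express, made up 30.7%, 8.68% and 11% in Wls fl/fl, against 33.3%, 33.9% and 30.1% in controls. Wls fl/fl replicate 1 thus had the proportions of the control libraries. S100a8 and S100a9 together held 41%, 47.2% and 50.4% in Wls fl/fl, against 33.3%, 38.2% and 42.0% in controls, with control replicate 1 resting on 15 reads. Lcn2, also a specific granule gene, was in none of these sums. It had 17 of 290, 78 of 1279 and 52 of 788 reads in Wls fl/fl replicates 1, 2 and 3. In controls it had 2 of 15, 20 of 186 and 9 of 176. Its share thus did not set Wls fl/fl replicates 2 and 3 above all controls.

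Set against replicate 1, Wls fl/fl replicate 2 had 8.15 times the RPM of Ltf (exact 95% counting interval 5.16 to 13.5), 7.94 times of Ngp (5.51 to 11.8) and 6.29 times of S100a8 (4.56 to 8.87). The ratio was 4.82 for S100a9 (3.74 to 6.27), 4.85 for Lcn2 (2.84 to 8.75) and 15.1 for Camp (5.57 to 57.2, on 4 reads in replicate 1). It was 1.06 for Retnlg (0.603 to 1.85) and 1.44 for Csf3r (1.0 to 2.08). Between 2 libraries of one group, S100a8, S100a9, Ltf, Ngp, Camp and Lcn2 thus differed as widely as between the genotypes, and Retnlg by no more than counting error. Wls fl/fl replicate 1 against the 3 controls pooled gave 2.11 for Retnlg (1.19 to 3.78), 2.20 for Ltf (1.12 to 4.38), 1.51 for S100a8 (0.991 to 2.28), 1.49 for S100a9 (1.08 to 2.04), 1.56 for Ngp (0.951 to 2.53), 1.03 for Lcn2 (0.537 to 1.93) and 0.629 for Camp (0.148 to 2.07). The same ratio was 1.21 for Csf3r (0.844 to 1.71), 1.13 for Mmp25 (0.338 to 3.44) and 2.64 for Cd177 (0.721 to 10.5). The intervals for Retnlg, Ltf and S100a9 lay above 1, and those for S100a8, Ngp, Lcn2, Camp, Csf3r, Mmp25 and Cd177 included 1. The SD of log2 values within Wls fl/fl was 1.4 for S100a8, 1.5 for Ltf, 1.5 for Ngp and 1.89 for Camp, against 0.19 for Retnlg and a median of 0.10 over all genes tested. Intervals cover counting error only.

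**Figure D3:**
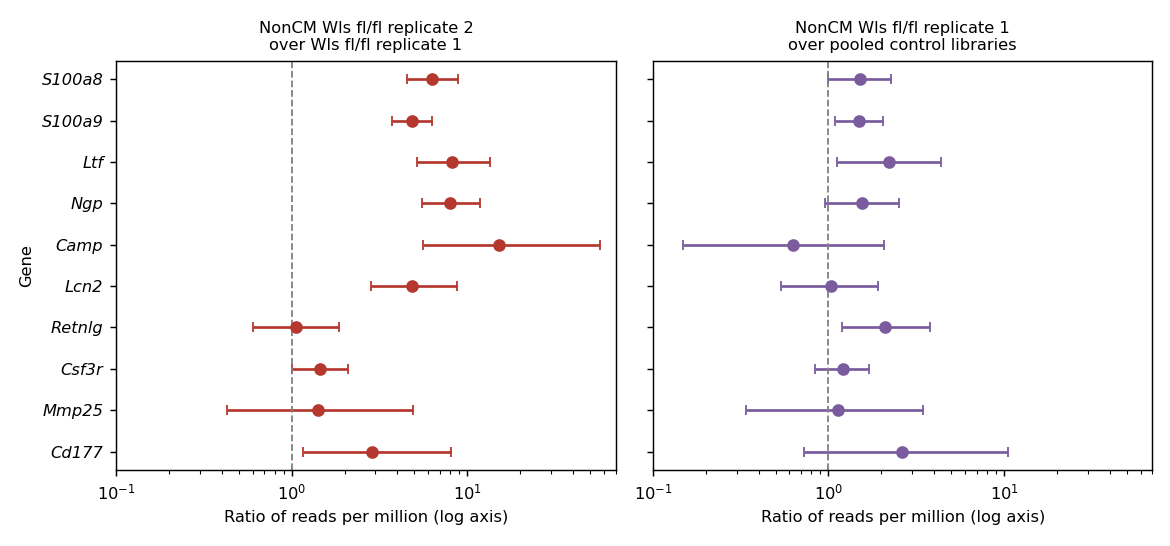
Ratio of RPM for each gene between NonCM Wls fl/fl replicates 2 and 1 (left) and between Wls fl/fl replicate 1 and the pooled NonCM controls (right), on log axes with exact 95% counting intervals and a dashed line at 1. Ratios on the left run from 1.06 for Retnlg to 15.1 for Camp, and those on the right from 0.629 for Camp to 2.64 for Cd177.

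In the CM fraction the 10 genes were near the limit of detection. No gene reached a mean of 10, so none was tested, and normalized read counts lay between 0 and 9.87. Their reads together numbered 16, 25 and 29 in Wls fl/fl replicates 1, 2 and 3, against 15, 26 and 22 in controls, or 3.33 ± 0.658 RPM in Wls fl/fl and 3.61 ± 1.32 in control libraries (SD, n = 3 each). S100a8 had 5, 3 and 2 reads in Wls fl/fl libraries, against 1, 3 and 1 in controls. S100a9 had 3, 6 and 5 reads in Wls fl/fl libraries, against 6, 4 and 2 in controls. Ltf had 4, 2 and 5 reads in Wls fl/fl libraries, against 1, 2 and 1 in controls. The groups of all 3 genes overlapped in normalized read counts. Cd177 had no read in any CM Wls fl/fl library, which allows up to 0.307 to 0.552 RPM. With no filter limma called 0 of the 10 in CM (lowest adjusted p = 0.835, none at an unadjusted p under 0.05), where 0.155% of 26529 genes were called, and edgeR with no filter also called 0. In that limma fit the log2 difference was 0.60 (SE 0.59) for S100a8, 0.05 (SE 0.54) for S100a9 and 0.81 (SE 0.56) for Ltf.

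Whether the genotype difference itself differed between fractions was asked in a joint edgeR fit of the 12 libraries. None of the 7 genes tested passed, where 1.41% of all genes tested did, and 1 had an unadjusted p under 0.05, against 4.89% of all genes tested that had one and were higher (by DESeq2, which gave no adjusted p for them, 3 of 10 had). By edgeR that gene was Lcn2, with a log2 difference in NonCM larger by 2.44 than in CM (SE 1.01, unadjusted p = 0.0257, edgeR adjusted p = 0.273). The same quantity was 3.72 for Ngp (SE 2.29, edgeR adjusted p = 0.514), 2.16 for S100a9 (SE 1.56, adjusted p = 0.603) and 1.80 for S100a8 (SE 2.24, adjusted p = 0.799). A difference between fractions was not resolved at these errors. Without NonCM Wls fl/fl replicate 1 Lcn2 passed, with 2.88 (SE 0.70, edgeR adjusted p = 0.0372), where 2.12% of all genes tested passed, and with no filter S100a9, Ngp and Lcn2 passed, where 1.31% did. In control libraries alone, 4 of the 7 genes had higher levels in NonCM than in CM, where 28.1% of all genes tested did. These were Csf3r with a log2 difference of 3.20 (SE 0.44, edgeR adjusted p = 2.95e-06), Retnlg with 2.59 (SE 0.62, adjusted p = 0.00130), S100a9 with 2.58 (SE 0.91, adjusted p = 0.0213) and S100a8 with 3.02 (SE 1.27, adjusted p = 0.0492). Lcn2, at 0.42 (SE 0.71), did not pass, nor did Ltf and Ngp. Without replicate 3 of all groups 2 of the 7 genes passed, Csf3r and Retnlg, where 21.3% of all genes tested did.

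Per length of annotated exons, S100a9 had the highest level of the 10 genes in NonCM, with 43.4 ± 27.1 RPM per kilobase in Wls fl/fl and 8.09 ± 2.86 in control libraries (SD, n = 3 each, as in the following values). S100a8 followed with 24.9 ± 16.9 in Wls fl/fl and 3.63 ± 1.17 in control libraries. In Wls fl/fl the order went on with Ngp (11.7 ± 9.12), Retnlg (5.17 ± 0.790), Camp (4.69 ± 3.74), Ltf (2.70 ± 2.12), Lcn2 (2.00 ± 1.24), Csf3r (1.74 ± 0.347), Cd177 (0.459 ± 0.224) and Mmp25 (0.132 ± 0.0225). In control libraries it went on with Retnlg (1.97 ± 0.742), Ngp (1.4 ± 0.627), Csf3r (1.15 ± 0.176), Camp (0.903 ± 0.670), Lcn2 (0.626 ± 0.242), Ltf (0.263 ± 0.0759), Mmp25 (0.0692 ± 0.0640) and Cd177 (0.0650 ± 0.0820). The SD give the spread of each gene among libraries and not that of a difference between genes, which were measured in the same libraries. Within each NonCM library S100a9 lay above S100a8, and S100a8 above Ngp, although control replicate 1 had only 3 and 2 reads of S100a9 and S100a8. In Wls fl/fl replicate 1 Retnlg (4.59) lay above Ngp (2.63), against the order of the means. The order was not tested.

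As a check on the cell type, other defining neutrophil genes were followed in NonCM. Ly6g, the surface antigen by which mouse neutrophils are usually sorted, had normalized read counts of 0, 0.665 and 0.747 in Wls fl/fl libraries, against 0, 0 and 0.724 in controls, that is at most 1 read a library. Cxcr2, the chemokine receptor that draws neutrophils from the marrow, had 4.45, 5.32 and 8.97 in Wls fl/fl libraries, against 0, 1.53 and 5.07 in controls. The collagenase gene Mmp8 had 3.18, 16 and 10.5 in Wls fl/fl libraries, against 5.54, 3.05 and 0 in controls. The 10 genes are accordingly treated as a list of genes and not as a count of neutrophils. None of the 6 azurophil granule genes of promyelocytes could be tested, and all had few reads, such as Mpo with 13 reads over the 3 Wls fl/fl libraries and 2 over the controls, and Elane with 3 and 0.

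Among 13 other genes of specific and gelatinase granules, 9 were tested in NonCM and 3 were higher by limma, with none lower. Of all 13271 genes tested, limma called 328 higher (2.47%) and 270 lower. Chil3, which encodes the chitinase-like protein Ym1 of neutrophils and monocytes, had 90.3, 378 and 256 in Wls fl/fl libraries, against 16.6, 35.8 and 21.0 in controls. It rose by 3.09 (SE 0.47, limma adjusted p = 0.0103), with Wls fl/fl replicate 1 again lowest. Lyz2, the lysozyme gene of macrophages and neutrophils, had 2142, 2182 and 2154 in Wls fl/fl libraries, against 1452, 1640 and 1587 in controls, and rose by 0.47 (SE 0.05, limma adjusted p = 0.00310). Itgb2, the shared subunit of leukocyte integrins, had 242, 204 and 220 in Wls fl/fl libraries, against 72.1, 126 and 121 in controls, and rose by 1.09 (SE 0.19, limma adjusted p = 0.0187). These last 2, expressed by macrophages too, were even across Wls fl/fl libraries. Mmp9, the gelatinase gene, had 8.90, 32.6 and 17.2 in Wls fl/fl libraries, against 0, 8.39 and 2.90 in controls. It did not pass limma (adjusted p = 0.134) but passed edgeR (adjusted p = 0.0388). In this list edgeR called 6 of 10 higher, against 5.59% of all genes tested. The median difference of the 9 was 0.65. Mmp9 and Hp, also of this list, passed the filter through their Wls fl/fl values, with control means of 3.76 and 6.48. The counts and the median of this list therefore describe these libraries only.

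Of 25 neutrophil surface and activation genes 9 were tested and 1 was higher by limma, against 2.47% of all genes tested. This was Alox5ap, the activating protein of leukotriene synthesis. It had 142, 125 and 130 in Wls fl/fl libraries, against 61.0, 94.6 and 88.4 in controls (0.72, SE 0.17, limma adjusted p = 0.0444). The median of the 9 was 0.55, with 8 of them higher, against 7054 of all 13271 genes tested. By edgeR 3 of 12 were called higher, Alox5ap, BC100530 and Clec4d, against 5.59% of all genes tested. BC100530, not tested by limma, had 7.63, 19.96 and 18.68 in Wls fl/fl libraries, against 0, 1.53 and 2.90 in controls. By edgeR it differed by 2.80 (adjusted p = 0.0047), and Clec4d by 0.88 (adjusted p = 0.0485). BC100530 had 67 reads over the Wls fl/fl libraries and 6 over the controls. It passed the edgeR filter through its Wls fl/fl libraries, so that its edgeR call describes these libraries and supports nothing. Clec4e, not called, passed the limma filter through its Wls fl/fl values, with a control mean of 7.52. Of 7 granulocyte transcription factor genes 5 were tested and none passed limma. An unadjusted limma p under 0.05 was reached by 1 of them, higher in Wls fl/fl. Of all 13271 genes tested, 1393 were higher at such a p. The transcription factor gene at that p was Spi1. It had 124, 125 and 120 in Wls fl/fl libraries, against 94.2, 99.1 and 92.7 in controls (0.37, SE 0.10, limma adjusted p = 0.0735), and edgeR called it. Cebpb, which had 494, 478 and 521 in Wls fl/fl libraries, against 333, 505 and 476 in controls, overlapped, and Cebpe, the specific granule factor, had 12 reads over the 3 Wls fl/fl libraries and 3 over the controls.

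Of 11 genes for ligands and receptors of the axis 8 were tested, and 1 was higher by limma, against 2.47% of all genes tested. This was Cxcl1, a chemokine that attracts neutrophils, which had 120, 144 and 141 in Wls fl/fl libraries, against 44.3, 83.1 and 71.7 in controls (1.06, SE 0.21, limma adjusted p = 0.0276). Not past the threshold were Cxcl2, with 66.8, 184 and 151 in Wls fl/fl libraries, against 55.4, 55.7 and 58.7 in controls (1.11, SE 0.31, limma adjusted p = 0.0852), and Il17ra (0.54, limma adjusted p = 0.0735). In this list edgeR called 5 of 9 higher, against 5.59% of all genes tested. Csf3, the gene of G-CSF itself, had 2 reads over the 3 Wls fl/fl libraries and 1 over the controls. Tlr4, a calprotectin receptor gene, had 410, 350 and 357 in Wls fl/fl libraries, against 416, 366 and 332 in controls (0.01, SE 0.10, limma adjusted p = 0.981).

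The other 14 S100 genes, which bind calcium but are expressed in other cells, moved both ways. Of 7 tested, 2 were higher and 1 lower by limma, against 328 and 270 of all 13271 genes tested. S100a4, not called, passed the filter through its Wls fl/fl values, with a control mean of 8.06. S100a10, the annexin A2 partner, had 525, 470 and 458 in Wls fl/fl libraries, against 316, 378 and 347 in controls (0.48, SE 0.09, limma adjusted p = 0.0186). S100a11 had 269, 255 and 290 in Wls fl/fl libraries, against 139, 193 and 190 in controls (0.65, SE 0.13, limma adjusted p = 0.0266). S100a1, the form of heart muscle, had 1050, 961 and 952 in Wls fl/fl libraries, against 1170, 1157 and 1190 in controls (−0.25, SE 0.05, limma adjusted p = 0.0379). In these 3 the Wls fl/fl libraries were even and the groups did not overlap. Without replicate 3 of both genotypes none of the 8 genes named here as passing limma still passed. That fit called 0 of all 13278 genes tested higher, so that for the higher genes the loss was that of every gene. In CM no gene of any of these lists was called by limma, where 0.0921% of 11944 genes were called in either direction, or by edgeR.

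**Figure D4:**
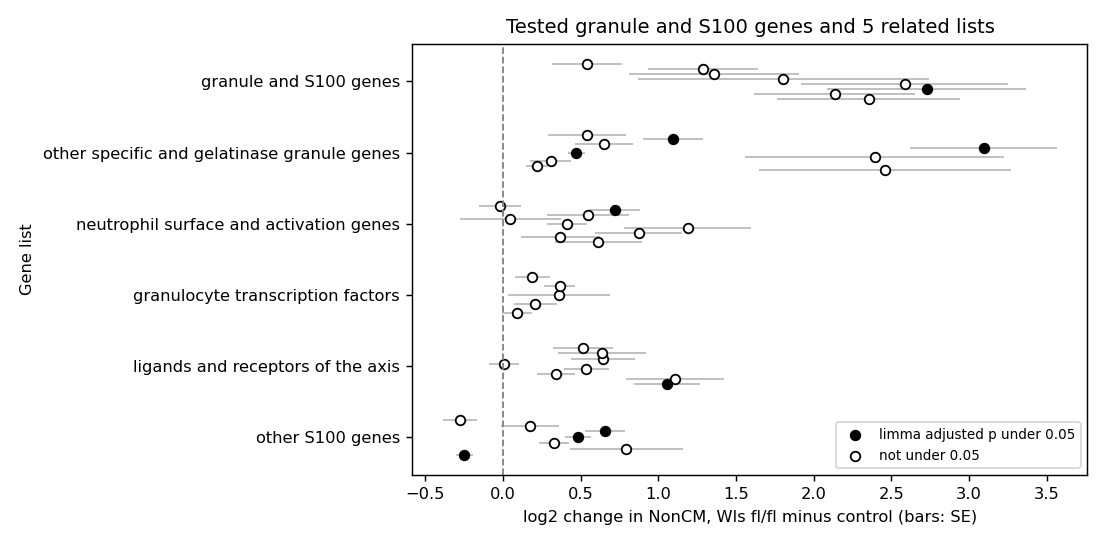
NonCM differences by limma (log2, Wls fl/fl minus control), with SE as bars, for the tested granule and S100 genes and the tested genes of 5 related lists, with filled points for adjusted p under 0.05. The granule and S100 genes lie between 0.54 and 2.73 with 1 of 8 filled, and the other lists between −0.28 and 3.09 with 7 filled higher and 1 filled lower. Of all 13271 genes tested, 328 were called higher and 270 lower.

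Markers of other cells moved with genotype in NonCM, and their part in the results above was not tested. Of all 13271 genes tested there, limma called 328 higher and 270 lower. Monocyte markers (8 genes, Chil3 among them, 7 tested, 2 higher by limma) summed to 313, 427 and 389 RPM in Wls fl/fl libraries, against 258, 217 and 220 in controls. Macrophage markers (11 genes, 1 higher) summed to 2052, 1786 and 1878 in Wls fl/fl libraries, against 1310, 1652 and 1508 in controls, fibroblast markers (10 genes, 6 higher) to 17213, 18189 and 17932, against 12309, 12973 and 12481, and cardiomyocyte markers (10 genes, 8 lower) to 53890, 52205 and 53129, against 66160, 60827 and 61629. Erythroid markers (7 genes, none called), a trace of blood, summed to 803, 305 and 494 in Wls fl/fl libraries, against 357, 695 and 490 in controls. B cell markers (5 genes, none called) summed to 3.40, 7.71 and 6.97, against 1.72, 3.68 and 3.89, and T and NK cell markers (8 genes, none tested, Klrb1c without a read) to 2.53, 1.54 and 1.97, against 0.862, 2.23 and 3.56. Endothelial markers (8 genes, 1 lower) summed to 1587, 1657 and 1647 in Wls fl/fl libraries, against 1761, 1747 and 1794 in controls, mast cell markers (6 genes, 1 higher) to 47.6, 41.3 and 45.2, against 42.2, 27.7 and 31.7, and platelet markers (5 genes, none called) to 39.5, 34.7 and 39.7, against 31.9, 28.8 and 26.1.

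The genes most like this pattern were sought over the 6 NonCM libraries as a description, by Pearson correlation with the mean of the 8 standardized granule and S100 genes, among 11327 genes with a mean of 20 or more. Cd14, the lipopolysaccharide co-receptor gene of monocytes, came first (r = 0.997), with 432, 691 and 615 in Wls fl/fl libraries, against 338, 405 and 366 in controls. It was followed by Hspa1a, an inducible heat shock gene (0.995), Dbh (0.995), Fuca1 (0.994) and Xaf1 (0.994). Within the 8, S100a8 (0.997), Ngp (0.994) and S100a9 (0.991) lay closest to their mean, and Camp (0.797) and Retnlg (0.845) farthest from it. The 6 points share libraries, depth and genotype, and many of the genes ranked reach a high r over so few points.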

How the data were processed

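RNA sequencing of 12 mouse libraries (4 groups of 3 by labelled genotype and cell fraction) was analysed. STAR, DESeq2 and mm10 are listed in the submitters' processing notes, without versions; the sources used here name no annotation, counting tool or strand setting, so reads of an overlapping antisense gene cannot be told apart. The deposited tables, 1 per fraction, hold a signal for each library, the normalized read count, which the authors scaled within each table. Per the file headers, they also hold log2 fold changes by the authors, each with its standard error, a test statistic (a score), a p-value and an adjusted p-value. All values were whole multiples (100%, tolerance 0.01) of 1 read, and reads were recovered from them; depth was 1160146 to 10281214 reads per library.

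The main test, run within each fraction, was limma 3.58.1 (eBayes with trend, R 4.3.3) on log2(value + 1) for Wls fl/fl minus control, over genes whose mean reached 10, with Benjamini-Hochberg adjustment over all genes tested and a threshold of 0.05. This scale can understate the change of low genes. A joint edgeR 4.0.16 quasi-likelihood fit (TMM, filterByExpr) of the recovered reads of 12 libraries gave the interaction of fraction and genotype and the level of NonCM against CM controls. Alternatives were edgeR, DESeq2 1.42.0, limma-voom, pseudocounts of 0.5 and 5, a minimum mean of 50 or none, TMM scaling, an adjusted p of 0.1 and libraries left out. Those that combine edgeR with no filter or with left-out libraries in 1 fraction were chosen after seeing the data. The code was tested on simulated counts.

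The 10 genes, the 6 gene lists and the cell type markers were chosen with earlier results of these data known. The text names all 10 genes, Wls, the called genes of each list or otherwise up to 3 tested genes of smallest p, and the 5 genes of highest correlation with the mean of the 8 tested genes, Rik and numbered Gm symbols aside. Other genes named (Ly6g, Cxcr2, Mmp8, Mmp9, Hp, Mpo, Elane, Clec4d, Clec4e, BC100530, Cebpe, Csf3, Cxcl2, Il17ra, Tlr4 and S100a4 in NonCM) were chosen after their values were seen. Exon lengths and positions came from GENCODE M21, and promoters from RefSeq on GRCm38.p6, where all 10 genes matched. Levels per length used the summed exons of each gene. Counting intervals are exact 95% intervals, and a count of 0 was taken to allow 3 reads.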

Additional observations from a re-analysis of the deposited data

Results flagged for a closer look

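The genotype effect differed between the 2 fractions, by the interaction term of the joint edgeR fit, for 2 of the genes followed here, neither of them a granule gene. Of all 13993 genes tested, 198 (1.41%) differed so. The genes followed were in part chosen by their calls within a fraction, so that their count cannot be judged against this share. For Wls, the floxed gene, the log2 difference of Wls fl/fl minus control was higher in NonCM than in CM by 1.15 (SE 0.16, edgeR adjusted p = 0.0103), with lower Wls in 3 of 3 Wls fl/fl libraries of each fraction. For S100a1, the S100 gene of heart muscle, it differed by −0.40 (SE 0.08, edgeR adjusted p = 0.0299). S100a1 was lower in all 3 Wls fl/fl libraries of NonCM, where the cardiomyocyte markers were lower too, and its limma difference in CM was 0.14 (adjusted p = 0.452). The part of the cell mixture in this difference was not tested.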

How the results depend on the processing

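In NonCM the differences of the granule and S100 genes kept their direction in all 182 values under the alternatives. Here and below the alternatives reuse the same libraries, and that at an adjusted p of 0.1 has the values of the main fit. Among genes tested by limma, 112 values kept their side of the threshold, 56 passed it newly and 9 no longer did. The number called, 1 of 8 by limma (2.47% of all genes tested were called higher), depended on the setting. It was 5 of 8 at an adjusted p of 0.1 (4.54%), 4 of 10 with no filter (1.19%) and 3 of 3 at a mean of 50 or more (4.23%). It was 5 of 7 by edgeR (5.59%), 3 of 3 by DESeq2 (3.2%) and 8 of 10 by edgeR with no filter (3.16%). In that last fit the SE of S100a8 was 0.18, against 0.56 with the filter. S100a8, S100a9 and Ngp, the 3 genes at a mean of 50 and by DESeq2, reached that mean through their Wls fl/fl values. Ltf and Retnlg passed the edgeR filter through their Wls fl/fl libraries. The number called was 1 under TMM scaling (Ltf, 2.24%), pseudocounts of 0.5 (Ltf, 2.43%) and 5 (S100a9, 2.63%) and limma-voom (Retnlg, 5.38%). Leaving out 1 library gave 0 to 5 calls by limma and 0 to 8 by edgeR, where 0 came only without control replicate 3. Leaving out replicate 3 of both genotypes gave 0 by either. The interaction of fraction and genotype, with 0 of 7 called (1.41% of all genes tested), gave 3 of 10 with no filter (1.31%) and 0 to 1 with 1 library left out. The level of NonCM against CM controls, with 4 of 7 called higher in NonCM (28.1% of all genes tested), gave 2 to 5 with 1 library left out. It gave 2 without replicate 3 of all groups (21.3%), and Csf3r and Retnlg were called in all 17 alternatives. In each of these 2 comparisons 117 of 119 values kept their direction, the others being of genes not called. DESeq2 gave no adjusted p for these genes in the interaction. In CM 0 were called under the alternatives that gave a value. The cause of these dependences was not tested. No paired analysis was made, because the labels share no replicate numbers between groups and do not say which fractions came from 1 heart. The numbers in the library titles run in parallel in the fractions, and whether this pairs them by heart was not tested. The joint fit treats the fractions as unpaired. Depth limited the CM fraction, with 15 to 29 reads of the 10 genes per library, and NonCM control replicate 1, with 15.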
